A study of Mus musculus with 2 samples.

Results

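Conventional dendritic cells type 1 (cDC1) of the mouse colon lamina propria were taken from 2 single-cell RNA libraries by the unique molecular identifiers (UMIs, 1 count per captured RNA molecule) that each cell held. A kept cell had 200 to 6000 detected genes and at most 15% of its UMIs from mitochondrial genes. A kept cell was called a cDC1 when it held at least 2 UMIs over Xcr1 and Clec9a, at least 1 UMI of Wdfy4, and none of Cd209a, Cd3e or Cd79a. These cells numbered 480 of 20052 kept cells, of which 417 of 11885 came from the library titled Runx3_fl and 63 of 8167 from the library titled Runx3. The levels of these 6 genes in cDC1 follow from the rule and are given only as a description.

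The study compared mice with floxed RUNX3 alleles that carried Cre under the Lyz2 promoter (RUNX3 fl/fl-Lyz2-Cre) with RUNX3 fl/fl littermates, so that floxed alleles are shared by both groups. Lyz2-Cre acts in myeloid cells, mainly macrophages, monocytes and granulocytes. Lyz2 itself was read in cDC1 of both libraries but also in T cells, so these reads do not show which cells used the driver. The titles do not state which library carried Cre, so the libraries are named by their titles and no direction by genotype is drawn. The mice were stated to be male, and were 8 weeks old and pooled (6 mice, with no statement of whether this is per library). The cells were enriched on a density gradient and sorted as live cells, with CD11b given as a label. Cells with T or B cell genes were nevertheless present, such as 2868 and 367 cells with at least 2 Cd3e UMIs in Runx3_fl and Runx3. The libraries held 12968 and 8953 cells and shared 37 barcodes, 4 of them cDC1 of Runx3_fl and none cDC1 of Runx3. Each group is 1 library, which allows no test between groups: intervals below cover counting error only, and a gene was counted as different when its level, in CPM (its UMIs scaled by the total UMIs of the summed cells), differed more than 2-fold on the log2(CPM + 1) scale and reached 50 CPM on at least 1 side. Library, genotype and pool of mice cannot be told apart. The mix of sexes differed between the libraries too: 23.2% of kept cells of Runx3_fl and 0% of those of Runx3 held Xist and no Y-linked UMI.

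cDC1 are the dendritic cell lineage that takes up dead cells and presents their antigens on MHC class I to CD8 T cells. Their development requires IRF8 and BATF3, with ID2 and NFIL3 upstream. XCR1, a chemokine receptor for XCL1 made by NK and CD8 T cells, and CLEC9A, a receptor for exposed actin on dying cells, are their surface hallmarks, while WDFY4 is needed for cross-presentation. In the intestine they carry CD103 (Itgae), and they are a main source of the IL-12 p40 subunit (Il12b) and of CXCL9 and CXCL10. RUNX3, the factor targeted in this study, is a DNA-binding protein of the Runt family that pairs with CBFB.

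Because RUNX3 was the targeted factor, the 250 bases before the RefSeq start of 3 genes are shown with the core Runt-family motif TGTGGT in capitals on either strand (ACCACA when read on the other strand). They are Wdfy4, a gene of the rule, Ly75, the uptake receptor DEC-205, whose level differed most between libraries among the cDC1 genes at 50 CPM, and Runx3 itself. The Wdfy4 window is chr14:33185067-33185316 on the minus strand, that of Ly75 is chr2:60383274-60383523 on the minus strand, and that of Runx3 is chr4:135120395-135120644 on the plus strand, at the first listed of its starts, all in GRCm38.p6. Each sequence is written 5′ to 3′ along its gene.
Wdfy4: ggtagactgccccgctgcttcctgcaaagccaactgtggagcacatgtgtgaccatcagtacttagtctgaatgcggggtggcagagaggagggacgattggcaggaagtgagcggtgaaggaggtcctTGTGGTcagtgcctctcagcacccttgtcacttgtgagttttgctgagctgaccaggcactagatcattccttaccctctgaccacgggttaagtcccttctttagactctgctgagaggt
Ly75: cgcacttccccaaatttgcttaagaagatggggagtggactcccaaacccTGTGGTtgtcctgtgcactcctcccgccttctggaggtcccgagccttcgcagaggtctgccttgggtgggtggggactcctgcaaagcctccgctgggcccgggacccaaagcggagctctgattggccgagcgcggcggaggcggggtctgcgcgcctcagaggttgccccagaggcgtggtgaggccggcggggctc
Runx3: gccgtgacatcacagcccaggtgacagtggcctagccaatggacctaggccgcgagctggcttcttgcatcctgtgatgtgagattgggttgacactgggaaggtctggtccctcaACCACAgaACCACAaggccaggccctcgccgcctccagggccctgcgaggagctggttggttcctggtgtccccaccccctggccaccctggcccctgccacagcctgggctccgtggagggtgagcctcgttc
The Wdfy4 window held 1 match, 121 to 116 bases before the start, and the Ly75 window held 1 match, 200 to 195 bases before the start. The Runx3 window held 2 matches on the other strand, at 134 to 129 and at 126 to 121 bases before the start. Of 27025 genes with such a window, 14.2% held the motif. Among the marker genes of the rule and label, 1 of 4 with a window held it, none of 8 cDC1 transcription factors did, and 6 of 18 other cDC1 genes did (Btla, Clnk, Ifi205, Jaml, Ly75 and Tlr12). A match is only a match of letters, and no binding was measured in these libraries.

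The label was checked against the markers Cadm1 and Irf8, which the rule did not read and whose summed levels were above those of other dendritic cells in both libraries. Cadm1, an adhesion molecule of cDC1, stood at 516 CPM in cDC1 of Runx3_fl (95% counting interval 501 to 530) and at 394 CPM in cDC1 of Runx3 (359 to 431). In Cd209a+ Flt3+ cells, the kept cells with a UMI of both Cd209a and the dendritic cell growth factor receptor Flt3 and none of Cd3e or Cd79a, Cadm1 stood at 26.6 and 13.9 CPM. Irf8, the lineage factor, stood at 720 CPM (703 to 737) in cDC1 of Runx3_fl and 715 CPM (668 to 765) in those of Runx3, against 239.6 and 128 CPM in Cd209a+ Flt3+ cells. All other kept cells held Irf8 at 409 and 183 CPM, within 2-fold of cDC1 in Runx3_fl, so it was not particular to cDC1. After each cell was thinned to 2000 UMIs, 64.2% of cDC1 of Runx3_fl and 54.0% of those of Runx3 kept an Irf8 UMI. The share was 10.5% and 13.1% of T cells (at least 2 Cd3e UMIs), which should hold little of it. It was 21.1% and 24.4% of B cells (at least 2 Cd79a UMIs with Ms4a1). The same shares for Cadm1 were 33.2% and 22.2%, against 0.873% and 1.91% of T cells. Before thinning, 96.2% and 85.7% of cDC1 held an Irf8 UMI, at median depths of 22355 and 19008 UMIs per cell. In single cells of Runx3_fl, Irf8 ran from 0 to 66 UMIs with a median of 13, and Cadm1 from 0 to 144 with a median of 1. In Runx3, Irf8 ran from 0 to 65 with a median of 7, and Cadm1 from 0 to 151 with a median of 0. Of the Cadm1 UMIs in cDC1 of Runx3, 56.1% came from 3 cells, and its level without them was 188 CPM. In the GENCODE annotation of GRCm38, Cadm1 is a protein-coding gene at chr9:47530173-47857637 on the plus strand and Irf8 one at chr8:120736358-120756694 on the plus strand.

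The share of cDC1 differed between the libraries by more than counting error. They made up 3.51% of kept cells in Runx3_fl (3.19% to 3.86%) and 0.771% in Runx3 (0.593% to 0.986%). The Cd209a+ Flt3+ cells lay the other way, at 1.19% and 2.22%. Of both kinds of dendritic cell together, cDC1 were 74.7% in Runx3_fl (70.9% to 78.3%) and 25.8% in Runx3 (20.5% to 31.8%). Detection depends on depth, and kept cells held a median of 9573 UMIs in Runx3_fl and 5731 in Runx3. When the rule was applied to cells thinned to 2000 UMIs, the shares were 0.346% (0.246% to 0.473%) and 0.0953% (0.035% to 0.207%), with 616 of 11885 and 1868 of 8167 kept cells left out as shallower. The share in Runx3 then rests on very few cells. A sort, and the other cells each library holds, can set these shares too.

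**Figure D1:**
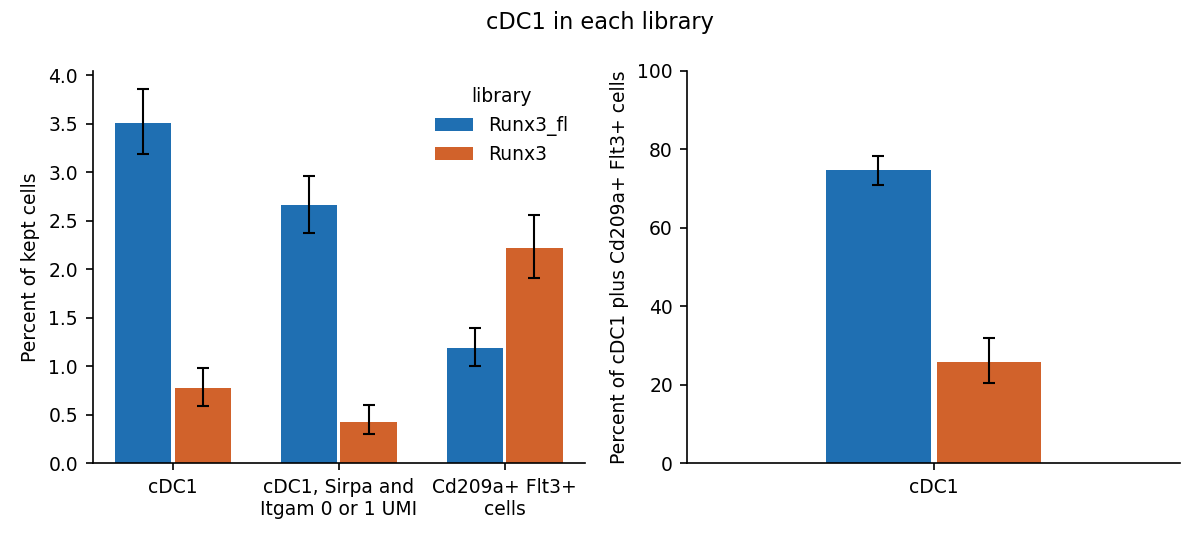
Bars give the percent of kept cells (left) and the percent of cDC1 plus Cd209a+ Flt3+ cells (right) in each library, 1 library per group, with exact 95% binomial intervals for counting error. cDC1 were 3.51% of kept cells in Runx3_fl and 0.771% in Runx3, while Cd209a+ Flt3+ cells were 1.19% and 2.22%.

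The 2 libraries differed in how far their cDC1 lay from the limit of the rule. Exactly 2 UMIs of Xcr1 and Clec9a were found in 98 of 417 cDC1 of Runx3_fl and in 30 of 63 of Runx3. Cells just outside, with 1 such UMI and the rest of the rule met, numbered 209 and 125. Cells with at least 2 such UMIs but no Wdfy4 numbered 67 and 24. In Runx3_fl, Cadm1 stood at 96.0 CPM in the cells just outside, 149 CPM in those at the limit and 901 CPM in cells with 10 or more UMIs. In Runx3 the same levels were 73.0, 105 and 957 CPM, with only 5 cells in the top class. The median depth also climbed along this axis, from 14259 to 28217 UMIs per cell in Runx3_fl, so the count of rule UMIs and the depth of a cell moved together. Both genes of the pair were read in 62.6% of cDC1 of Runx3_fl and 38.1% of those of Runx3, and Clec9a without Xcr1 in 28.3% and 50.8%.

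cDC1 were not uniform in genes of the other lineages. Sirpa, an inhibitory receptor of macrophages and type 2 dendritic cells, and Itgam, which encodes CD11b, together had 2 or more UMIs in 101 of 417 cDC1 of Runx3_fl (24.2%) and in 28 of 63 of Runx3 (44.4%). This split was made after the values were seen. Among cells at exactly 2 rule UMIs the share was 44.9% in Runx3_fl (34.8% to 55.3%) and 70.0% in Runx3 (50.6% to 85.3%), next to 66.2% and 65.3% in cells with Wdfy4 and no UMI of Xcr1 or Clec9a. With 6 to 9 rule UMIs it was 11.2% and 9.09%. The interval of the members at the limit in Runx3 thus held the share of cells without Xcr1 and Clec9a. In the 28 cells of Runx3 with 2 or more UMIs of Sirpa and Itgam, a Cadm1 UMI was found in 5 and the median of Irf8 was 2 UMIs. Their 5 cDC1 markers summed to 1148 CPM, their macrophage and monocyte markers to 4993 CPM and their neutrophil markers to 18413 CPM. The neutrophil sum came largely from very few cells and is no trait of all 28. Of the UMIs in all 63 cDC1 of Runx3, 4293 of 4649 for S100a8 and 4247 of 4661 for S100a9 each lay in 1 cell. The cDC1 label was thus not borne out by the markers in these 28 of 63 cells, which are named here only by the rule.

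**Figure D2:**
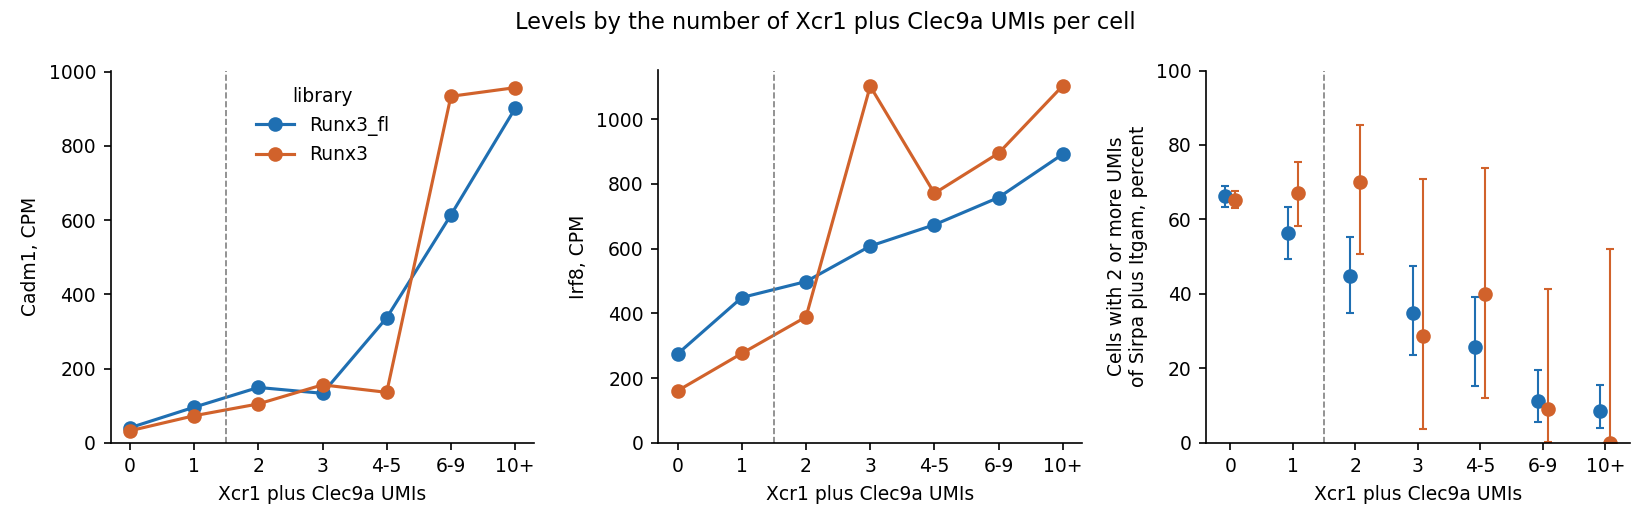
Cadm1 level (left, CPM), Irf8 level (middle, CPM) and the percent of cells with 2 or more UMIs of Sirpa plus Itgam (right, exact 95% binomial intervals) are plotted by the UMIs of Xcr1 plus Clec9a per cell, for cells that met the other parts of the rule; the dashed line marks the limit of 2. Cadm1 reached 901 CPM in Runx3_fl and 957 CPM in Runx3 at 10 or more UMIs, where the Sirpa and Itgam share was 8.49% and 0%, the latter over 5 cells.

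The cDC1 with 2 or more UMIs of Sirpa and Itgam carried macrophage genes. In Runx3_fl, 8 of 12 macrophage and monocyte markers reached 50 CPM in them and 2 in the other cDC1, and 8.13% of 3604 genes were more than 2-fold higher in them. Since most of these markers passed the limit only on the side where they are high, and the split may itself choose cells with such genes, nothing is read from their count. C1qb, a subunit of complement C1q, stood at 143 CPM in them and 0.689 CPM in the others. Cd14, the endotoxin co-receptor, stood at 214 and 7.17 CPM. The lineage genes lay the other way: Cadm1 was at 219 and 605 CPM, and the receptor for double-stranded RNA, Tlr3, at 21.4 and 86.0 CPM. In a search for cells that resemble simulated sums of 2 cells, 30.7% of these cells in Runx3_fl (21.9% to 40.7%) and 3.16% of the other cDC1 were marked. In Runx3 the same shares were 7.14% and 2.86%. The part of doublets or of free RNA in these levels was not tested beyond these values. Results are therefore given for all cDC1 and, where they differ, for the 316 and 35 cDC1 with 0 or 1 such UMI, called Sirpa/Itgam-low below.

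T and B cell markers were low in Sirpa/Itgam-low cDC1, while markers of some other cell types were read. The 11 T cell markers summed to 28.0 CPM in Runx3_fl and 18.1 CPM in Runx3, with none at 50 CPM. Of 9 B cell markers only Ighm reached 50 CPM, at 74.7 and 116 CPM, and of 10 NK markers only Klrk1 did so in both. The 8 plasmacytoid dendritic cell markers summed to 267 CPM in Runx3_fl and 824 CPM in Runx3, with Bst2 highest, and 2 and 4 of them reached 50 CPM. One of those in Runx3, Siglech at 61.8 CPM, had all of its 41 UMIs in 2 cells, so it is no trait of all 35. The 7 plasma cell markers summed to 166 and 383 CPM, led by Xbp1 in Runx3_fl and the antibody gene Igha in Runx3, and the 8 mast cell and basophil markers to 131 and 86.0 CPM, nearly all Kit. Macrophage and monocyte markers summed to 319 and 667 CPM. The part of such RNA in the differences below was not tested. Neutrophil markers summed to 177 CPM in Runx3_fl, mostly Il1r2 at 169 CPM, and to 1207 CPM in Runx3, where S100a8 was at 469 CPM. In these 35 cells of Runx3, 272 of 311 S100a8 UMIs lay in 1 cell. Without the 3 cells that held most, the level there was 56.75 CPM. Of the S100a8 UMIs in all 63 cDC1 of Runx3, 98.6% came from 3 cells and 4293 of 4649 from a single cell. Without those 3 cells the level was 60.6 CPM instead of 3904 CPM. In all other kept cells of Runx3 it was 4666 CPM.

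Among transcription factors, Irf8 was more than 2-fold higher in cDC1 than in Cd209a+ Flt3+ cells of both libraries, the only 1 of 8 listed factors that was. Of 3577 genes compared there, 4.67% were more than 2-fold higher and 6.32% lower in cDC1, and of the 8 listed factors 2 were higher and 1 lower. Batf3, the partner of IRF8, stood at 119 CPM (112 to 126) in cDC1 and 36.8 CPM in Cd209a+ Flt3+ cells, a log2 ratio of 1.66. In Runx3_fl it thus reached 50 CPM only in cDC1 and could only be higher. In Runx3 it stood at 98.2 and 59.3 CPM, a ratio of 0.72 that did not reach 2-fold. Zeb2, a repressor that restrains the cDC1 fate, was at 665 CPM in cDC1 and 2166 CPM in Cd209a+ Flt3+ cells of Runx3_fl, and within 2-fold at 1138 and 1303 CPM in Runx3. In Sirpa/Itgam-low cDC1 it was 212 CPM in Runx3_fl and 125 CPM in Runx3. Irf4, the factor of type 2 dendritic cells, was at 6.34 CPM against 67.8 CPM in Runx3_fl and at 18.5 against 57.6 CPM in Runx3. Id2 stood at 406 against 218 CPM in Runx3_fl and 511 against 183 CPM in Runx3. Nfil3, Bcl6, Cbfa2t3 and Etv6 stayed within 2-fold in both libraries.

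Surface and uptake genes such as Cd24a, Itgae and Cd36 were higher in cDC1 than in Cd209a+ Flt3+ cells in both libraries. In Runx3, 3.79% of 3825 genes were more than 2-fold higher and 1.88% lower in cDC1, or 145 and 72 genes. This balance turned to 253 higher and 359 lower in Sirpa/Itgam-low cDC1, and to 253 and 327 when 3 UMIs of Xcr1 and Clec9a were required. Of 12 other cDC1 genes at 50 CPM, 9 were higher in Runx3_fl and 10 in Runx3, none was lower in either, and 9 were higher in both. The median log2 ratio of these 12 genes was 1.67 in Runx3_fl and 1.88 in Runx3, against 0.06 and 0.01 over all genes. Cd24a, a sialoglycoprotein used to sort these cells, stood at 389.9 and 87.1 CPM in Runx3_fl and at 330 and 87.4 CPM in Runx3. Itgae, the CD103 chain, stood at 55.1 and 17.4 CPM in Runx3_fl and at 78.1 and 23.5 CPM in Runx3. Cd36, a scavenger receptor, stood at 51.6 and 9.20 CPM in Runx3_fl and at 63.0 and 3.91 CPM in Runx3. Each of these 3 genes had the same order in both libraries. Itgae and Cd36 reached 50 CPM only in cDC1 and could only be higher, so the counts of this list are a description.

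Among receptors for dead cells and carbohydrates, 4 of 9 at 50 CPM were higher and 3 lower in cDC1 of Runx3_fl. The higher ones were Clec9a, which the rule used, Cd36, Ly75 and Clec12a, an inhibitory lectin for uric acid crystals at 92.7 against 32.4 CPM. The lower ones were Sirpa, Cd209a, which the rule used, and Timd4, a receptor for phosphatidylserine at 20.0 against 52.8 CPM. In Runx3 the same 4 genes were higher. Over all genes of Runx3_fl, 4.67% were higher and 6.32% lower in cDC1. Cd36, Clec12a and Timd4 reached 50 CPM on only 1 side there, so their direction was fixed and the counts are a description. With a limit of 10 CPM in place of 50, the median of this list less that of all genes was −0.96 in Runx3_fl, so its direction turned. Havcr2, which encodes TIM-3, lay within 2-fold at 319 against 184 CPM in Runx3_fl and 228 against 157 CPM in Runx3.

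Tlr3, the lysosomal enzymes Naaa and Ppt1 and the GTPase Rab7b were higher in cDC1 than in Cd209a+ Flt3+ cells. Of 7 nucleic acid and microbial sensors at 50 CPM in both libraries, Tlr3 was the only 1 past 2-fold in both. Over all 3341 such genes, 59 were higher and 36 lower in both. Tlr3 reached 50 CPM only in cDC1 in both libraries, and Rab7b only in cDC1 in Runx3. There they could only be higher, so their direction is a description. Tlr3 stood at 70.9 CPM (65.7 to 76.5) in cDC1 and 13.1 CPM in Cd209a+ Flt3+ cells of Runx3_fl, and at 86.5 CPM (70.6 to 105) and 4.26 CPM in Runx3. Tlr11 and Tlr12, sensors of microbial profilin, lay below 50 CPM at 21.3 and 29.8 CPM in cDC1 of Runx3_fl and 20.2 and 26.9 CPM in those of Runx3, against 1.07 to 3.39 CPM in Cd209a+ Flt3+ cells. Naaa, a lysosomal amidase, stood at 557 and 180 CPM in Runx3_fl and at 511 and 141 CPM in Runx3. Ppt1, a lysosomal thioesterase, stood at 424 against 66.3 CPM in Runx3_fl and at 411 against 61.5 CPM in Runx3. Rab7b, a late endosome GTPase, stood at 301 against 59.5 CPM in Runx3_fl and at 248 against 46.2 CPM in Runx3. Tlr3, Naaa, Ppt1 and Rab7b were more than 2-fold higher in both libraries, but lysosomal enzymes were not tallied as a group, and the lysosomal protease Lgmn was lower in Runx3_fl, at 90.3 against 201 CPM.

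**Figure D3:**
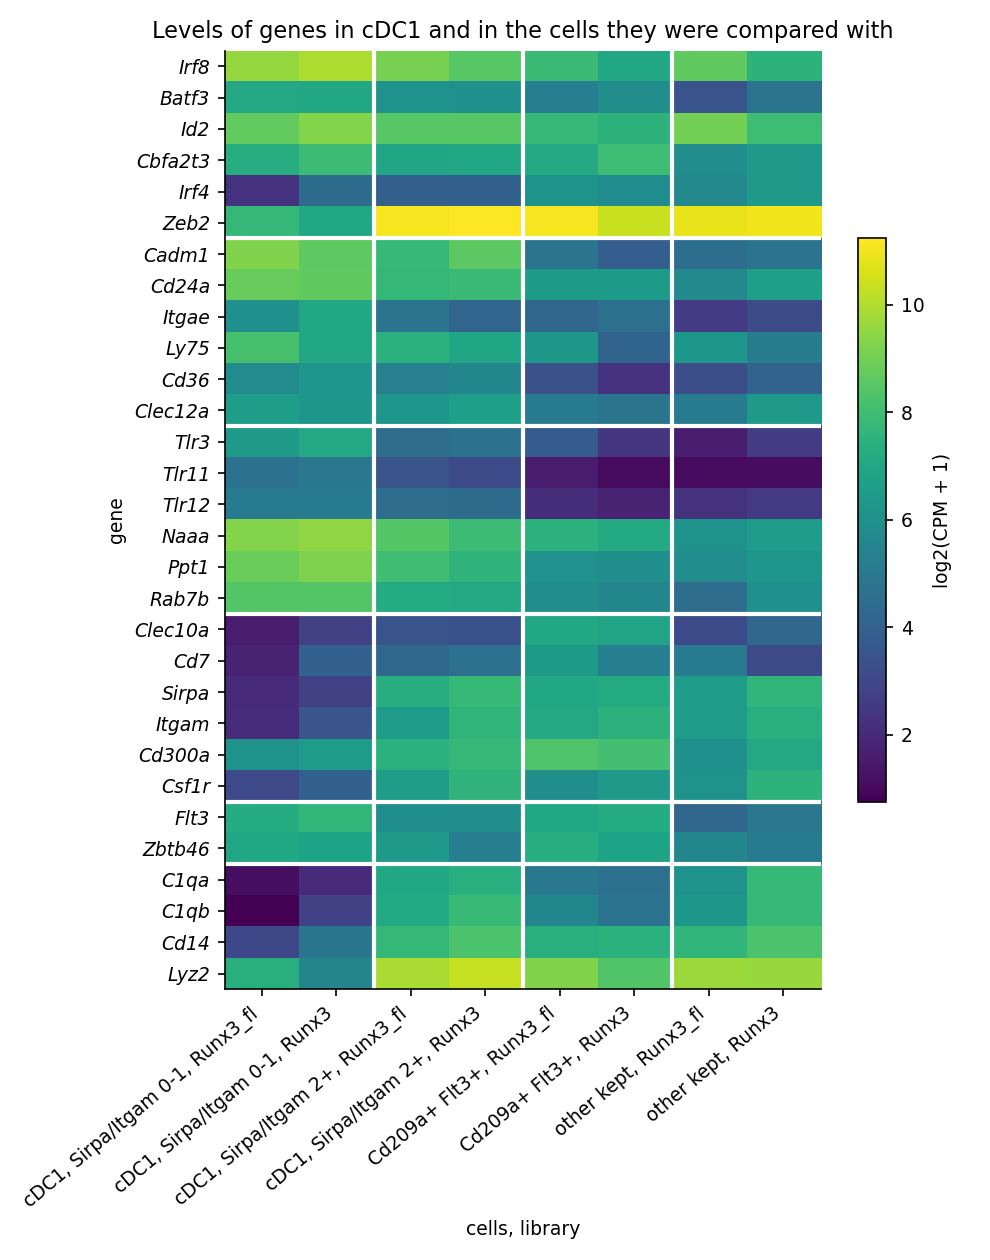
Each cell of the map gives log2(CPM + 1) of a gene (row) in the summed UMIs of a class of cells in 1 library (column); white lines separate gene groups and classes. Zeb2, Lyz2, Cd14 and C1qb are low in cDC1 with 0 or 1 UMI of Sirpa and Itgam and high in those with 2 or more, where Sirpa and Itgam themselves defined the split.

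Clec10a and Irf4, genes of type 2 dendritic cells, were lower in cDC1 of both libraries. Of 11 such genes at 50 CPM, 8 were more than 2-fold lower in Runx3_fl and none higher, with a median log2 ratio of −1.78. In Runx3, 5 of 12 were lower and none higher, and 3 of 10 measured in both were lower in both, namely Clec10a, Irf4 and Cd209a. Each of these counts includes Cd209a, which the rule excluded from cDC1, and genes such as Clec10a that reached 50 CPM only in Cd209a+ Flt3+ cells and so could only be lower, so the counts are a description. Clec10a, a lectin for galactose, stood at 3.81 against 126 CPM in Runx3_fl and at 7.56 against 118 CPM in Runx3. Cd7, an immunoglobulin-family receptor, stood at 6.24 against 87.1 CPM in Runx3_fl and at 18.5 against 38.0 CPM in Runx3. Leaving out cDC1 with 2 or more UMIs of Sirpa and Itgam gave 8 of 11 and 10 of 12 lower, against 9.53% and 9.1% of all genes, counts that include Sirpa and Itgam themselves. Flt3, read in the Cd209a+ Flt3+ cells by their own rule, was at 129.9 and 128 CPM in Runx3_fl and 142 and 149 CPM in Runx3.

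Few antigen presentation genes passed 2-fold between the 2 kinds of dendritic cell, but few of all genes did. In Runx3_fl, 4.67% of 3577 genes were higher and 6.32% lower in cDC1. In Runx3, 3.79% of 3825 were higher and 1.88% lower. The counts between these 2 kinds of cell lie near those shares and are a description. Of 21 genes of MHC class I and cross-presentation at 50 CPM, none was higher and 1, the oxidase subunit Cybb, was lower in cDC1 of Runx3_fl, with a median log2 ratio of 0.13. Cybb stood at 220.3 against 879 CPM. In Runx3 none of 20 passed 2-fold. Rab43, a GTPase used in cross-presentation by cDC1, stood at 367 against 269.6 CPM in Runx3_fl and at 497 against 283 CPM in Runx3. Of 13 MHC class II genes, only the protease Lgmn passed 2-fold in Runx3_fl. H2-Ab1 stood at 5526 against 5155 CPM and Cd74, the invariant chain, at 10210 against 10601 CPM there. Against all other kept cells of Runx3_fl, 10 of 12 class II genes were higher in cDC1, where 7.97% of 3950 genes were.

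**Figure D4:**
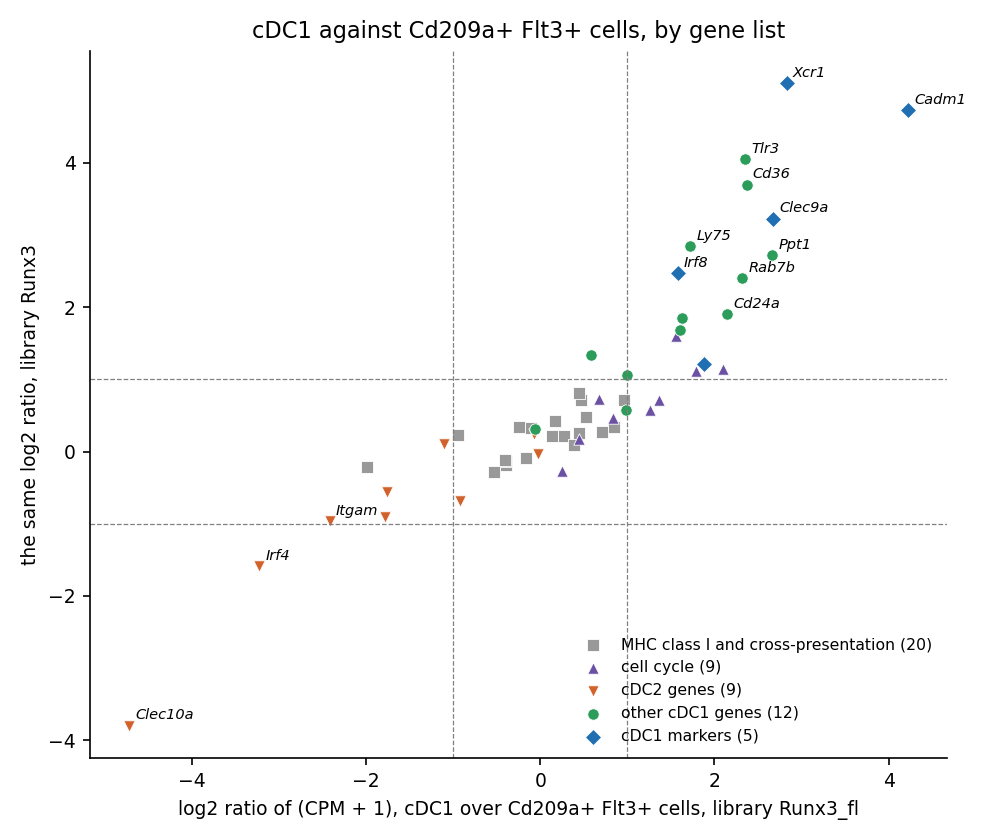
Each point is a gene at 50 CPM in both libraries, with the log2 ratio of (CPM + 1) of cDC1 over Cd209a+ Flt3+ cells in Runx3_fl on the x axis and in Runx3 on the y axis; colours give the gene list and dashed lines 2-fold. cDC1 markers (of which Xcr1, Clec9a and Wdfy4 were used by the rule) and other cDC1 genes lie at the upper right, Clec10a and Irf4 of the 9 plotted cDC2 genes lie past 2-fold at the lower left (Cd209a, used by the rule, is not plotted), and none of the 20 MHC class I genes passes 2-fold in both.

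Genes of gut homing and tolerance were mixed. In Runx3_fl, Itgae was higher in cDC1 and the chemokine receptor Ccr2 was lower, at 96.5 against 238 CPM. Ahr, the receptor for aryl hydrocarbons, stood at 420 CPM in cDC1 and 284 CPM in Cd209a+ Flt3+ cells, and at 78.1 CPM in all other kept cells of that library. Aldh1a2, the enzyme of retinoic acid synthesis, Itgb8 and Ido1 were each below 10 CPM in cDC1 of both libraries, which limits what can be said of them.

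Genes outside the lists with large differences were taken by rank. P2ry14, a receptor for UDP-sugars, stood at 161 against 13.1 CPM in Runx3_fl. Adam19, a metalloprotease, stood at 163 against 23.2 CPM, and Asap2, a regulator of small GTPases, at 74.0 against 8.23 CPM. In Runx3 the same 3 genes stood at 163 against 37.7 CPM, 134 against 15.3 CPM and 58.8 against 8.88 CPM. All 3 reached 50 CPM only in cDC1 in both libraries and could only be higher, so their direction is a description. Over all 3341 genes at 50 CPM in both libraries, 59 were higher and 36 lower in both and none was past 2-fold in opposite directions. When, for each gene, the 5% of cells with most of its UMIs were left out of each sum, 135 of 167 higher and 180 of 226 lower genes stayed past 2-fold in Runx3_fl, and 81 of 145 and 44 of 72 in Runx3.

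Proliferation genes were higher in cDC1 than in Cd209a+ Flt3+ cells of Runx3_fl. Of 13 at 50 CPM, 9 were higher and none lower, with a median log2 ratio of 1.32 against 0.06 over all genes, of which 4.67% were higher. In Runx3, 3 of 9 were higher, where 3.79% of 3825 genes were. Genes that reached 50 CPM only in cDC1 could only be higher and were not counted apart, so these counts are a description. With the rule on cells thinned to 2000 UMIs, the log2 ratio in Runx3_fl was −0.64 in place of 1.16 for Birc5 and −1.55 in place of 1.56 for Ube2c. Top2a, the topoisomerase of dividing cells, stood at 237 against 54.7 CPM, and Stmn1, a regulator of microtubules, at 207 against 59.1 CPM. At least 2 UMIs over Mki67, Top2a, Birc5 and Cdk1 were found in 60.2% of cDC1 of Runx3_fl (55.3% to 64.9%) and in 33.3% of those of Runx3 (22.0% to 46.3%). The same gate took 45.4% and 32.6% of Cd209a+ Flt3+ cells, and 56.8% and 18.8% of T cells. Depth bears on this gate: in Runx3_fl it took 22.4% of cDC1 thinned to 2000 UMIs. At that depth an Mki67 UMI was found in 25.7% of cDC1 of Runx3_fl and 20.6% of those of Runx3, and in 17.0% and 8.43% of Cd209a+ Flt3+ cells.

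Cycling and other cDC1 of Runx3_fl differed in few genes beyond the cell cycle. Of 3442 genes, 57 were higher in cycling cells (1.66%) and 4 lower (0.116%), in a comparison defined by 4 of those genes. Cadm1 stood at 521 CPM in cycling and 504 CPM in other cDC1, Irf8 at 723 and 714 CPM, and Flt3 at 129.7 and 130.4 CPM. The lower genes included Slfn5, an interferon-induced gene, at 42.7 against 114 CPM, and Ifitm6 at 34.4 against 70.6 CPM. The lineage genes did not separate the cycling cells from the rest.

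Il12b was read in a minority of cDC1. In Sirpa/Itgam-low cDC1 of Runx3_fl, 63 of 316 held an Il12b UMI (19.9%, 15.7% to 24.8%), against 2.16% of T cells and 1.56% of B cells (at least 2 Cd79a UMIs with Ms4a1), where little is expected. The median depths of these 3 classes were 22562, 14416 and 6882 UMIs. In Runx3 the numbers were 2 of 35 (5.71%, 0.700% to 19.2%), against 0.545% and 0.539%. After thinning to 2000 UMIs, 13.7% of all cDC1 of Runx3_fl and 1.59% of those of Runx3 held one. The level was 285 CPM (273 to 298) in Sirpa/Itgam-low cDC1 of Runx3_fl and 3.02 CPM (0.365 to 10.9) in those of Runx3, the latter from 2 UMIs. Over all cDC1 of Runx3 it was 31.9 CPM, of which 35 of 38 UMIs lay in 1 cell. Il12a, the p35 subunit, stood at 0.317 CPM in cDC1 of Runx3_fl and had no UMI in those of Runx3.

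Il12b-positive cDC1 carried other activation genes. Among Sirpa/Itgam-low cDC1 of Runx3_fl, 1.96% of 3422 genes were more than 2-fold higher in Il12b-positive cells and 0.468% lower. Of 10 cytokine and chemokine genes 6 were higher, Il12b itself included, and of 10 maturation genes 3 were. Il12b set the split, and a gene such as Tnf reached 50 CPM only in the positive cells and could only be higher. These counts are therefore a description. Ccr7, the receptor that guides dendritic cells to lymph nodes, stood at 359 against 80.0 CPM, Cd40, the receptor for T cell help, at 234 against 69.6 CPM, and Cxcl9 at 1889 against 864 CPM. Tnf stood at 163 against 46.0 CPM, and Acod1, the enzyme that makes itaconate, at 166 against 27.4 CPM. Lineage genes were close, with Cadm1 at 552 and 617 CPM and Irf8 at 681 and 795 CPM, and Ube2c, a gene of mitosis, was lower at 27.6 against 112 CPM. Of these 63 cells, 2 were marked as resembling simulated doublets.

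Cells with the Ccr7 and Fscn1 pair of migratory dendritic cells were rare. They numbered 3 of 417 cDC1 in Runx3_fl (0.719%) and 2 of 63 in Runx3, and 6 of 141 and 1 of 181 Cd209a+ Flt3+ cells. Fscn1, the actin-bundling protein fascin, had 75 UMIs in cDC1 of Runx3, 70 of them in 1 cell. Ccr7 alone stood at 201 CPM in cDC1 and 439 CPM in Cd209a+ Flt3+ cells of Runx3_fl.

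Between the libraries, most genes lay within 2-fold in cDC1. Of 3805 genes, 7.17% were more than 2-fold higher and 1.79% lower in cDC1 of Runx3 than in those of Runx3_fl. The markers Xcr1, Clec9a and Wdfy4 were read by the rule in both libraries, so nothing is read from their levels, while Cadm1 and Irf8 had log2 ratios of −0.39 and −0.01. Batf3, Tlr3, Naaa, Ppt1 and Rab7b also stayed within 2-fold. Of 12 other cDC1 genes, 1 passed 2-fold, a share near that of all genes. This was Ly75, at 261 CPM (250.4 to 271) in Runx3_fl and 127 CPM (107 to 149) in Runx3. In Sirpa/Itgam-low cDC1 it stood at 287 and 131 CPM, and in Cd209a+ Flt3+ cells at 78.4 and 16.7 CPM. With 3 UMIs of Xcr1 and Clec9a required, the log2 ratio of Ly75 was −0.46 in place of −1.03 and no longer past 2-fold.

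Some interferon-induced genes were higher in cDC1 of Runx3. Irf7, the factor that amplifies type I interferon, stood at 43.9 CPM (39.8 to 48.3) in Runx3_fl and 345 CPM (313 to 380) in Runx3, and had a UMI in 43.4% and 77.8% of cDC1. In Sirpa/Itgam-low cDC1 it stood at 36.5 and 308 CPM. Usp18, a brake on interferon signalling, stood at 15.0 and 87.3 CPM, and Rsad2, the antiviral enzyme viperin, at 53.7 and 188 CPM. Isg15, a ubiquitin-like modifier, stood at 203 and 464 CPM. Of 16 interferon-response genes at 50 CPM, 8 were higher and 3 lower in all cDC1. Their median log2 ratio was 0.72, against 0.05 over all genes. In Sirpa/Itgam-low cDC1, 7 of 15 were higher and 3 lower, where 5.97% of genes were higher. Irf7, Usp18 and Iigp1 reached 50 CPM in cDC1 of only 1 library and could pass only on that side. The counts and median of this list are therefore a description. With a limit of 200 CPM in place of 50, the median of this list less that of all genes was −0.47, so its direction turned. In Cd209a+ Flt3+ cells 5 of 18 were higher and 4 lower, where 4.68% of 3632 genes were higher and 2.59% lower (170 and 94 genes). At 200 CPM these became 21 higher and 49 lower.

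The 3 interferon-response genes that were lower in Runx3 were Cxcl9, Cxcl10 and Iigp1. Cxcl9, a ligand of CXCR3 on T cells, stood at 1157 CPM (1135 to 1179) in Runx3_fl and 338 CPM (306 to 373) in Runx3. Cxcl10, a second ligand of that receptor, stood at 571 and 259 CPM. Iigp1, an interferon-gamma-induced GTPase, stood at 155 and 37.8 CPM. In cells thinned to 2000 UMIs, a Cxcl9 UMI was found in 60.1% of cDC1 of Runx3_fl and 25.4% of those of Runx3. The higher and the lower genes of this list lay on the same sides in Cd209a+ Flt3+ cells, where Irf7 stood at 40.7 and 283 CPM and Cxcl9 at 825 and 258 CPM.

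Some genes of costimulation and T cell inhibition were lower in Runx3, among them Cd274 in Sirpa/Itgam-low cDC1. There 5 of 9 maturation genes were past 2-fold, all lower, and 2.86% of 3736 genes were lower. Of these 5, 4 reached 50 CPM only in Runx3_fl and could only be lower, so the count is no support for a direction of the list. Cd274, which encodes PD-L1, stood at 497 and 201 CPM. Pdcd1lg2, which encodes PD-L2, stood at 67.4 and 13.6 CPM, and Cd80, the ligand of CD28 and CTLA-4, at 155 and 45.3 CPM. Cd40 stood at 100 and 39.2 CPM and Ccr7 at 131 and 42.2 CPM. In all cDC1 only Cd80 and Pdcd1lg2 of these 5 passed 2-fold, and the log2 ratio of Pdcd1lg2 went from −1.77 to 0.16 with the rule on thinned cells. Over all cDC1 Cd274 stood at 604 and 345 CPM and Ccr7 at 201 and 189.8 CPM. Cd86 and Cd83 were within 2-fold in both sets. In Cd209a+ Flt3+ cells Cd274, Ccr7 and Pdcd1lg2 also passed 2-fold, with Cd80 at 295 and 154 CPM.

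Il12b and 2 genes outside the lists were also lower in Runx3, which is a description. The 2 were named by the size of their ratio, so that choice set their direction. Il12b reached 50 CPM only in Runx3_fl in each class below, and Serpinb9 only there in cDC1. These 2 genes could therefore only be lower. The log2 ratio of Il12b was −3.16 in all cDC1, −6.15 in Sirpa/Itgam-low cDC1 (counting interval −9.61 to −4.71) and −5.64 in Cd209a+ Flt3+ cells. Tnip3, an inhibitor of NF-kB signalling, stood at 398 and 76.4 CPM in cDC1, and Serpinb9, an inhibitor of granzyme B, at 207 and 42.8 CPM. In Cd209a+ Flt3+ cells Tnip3 stood at 681 and 165 CPM. The inflammatory chemokines Ccl3 and Ccl4 lay the other way in Sirpa/Itgam-low cDC1, at 45.3 and 103 CPM and at 149 and 483 CPM.

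**Figure D5:**
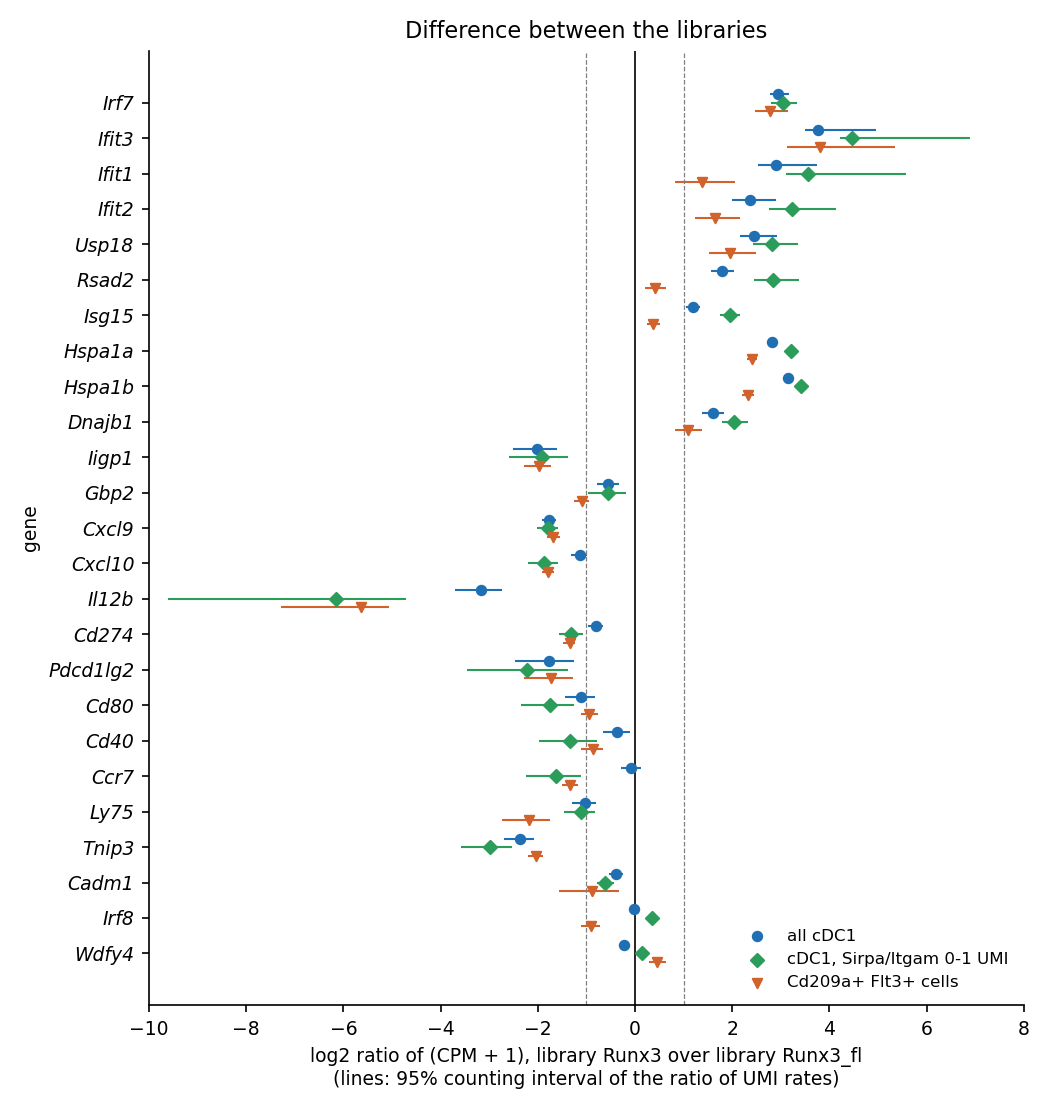
Points give the log2 ratio of (CPM + 1) of the library Runx3 over the library Runx3_fl for all cDC1, Sirpa/Itgam-low cDC1 and Cd209a+ Flt3+ cells, and lines the exact 95% counting interval of the ratio of UMI rates, 1 library per group. Interferon-induced genes such as Irf7 lie to the right and Cxcl9, Il12b, Cd274 and Tnip3 to the left in every class, while Cadm1 and Irf8 lie within 2-fold. Wdfy4 does too, but the rule used it to choose cDC1, so nothing is read from its level there.

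Hspa1a and Hspa1b, heat shock genes, were higher in Runx3 in cDC1 and in all other kept cells. Hspa1a stood at 325 CPM in cDC1 of Runx3_fl and 2317 CPM in those of Runx3, and its near-identical copy Hspa1b, with which it shares reads, at 200.3 and 1789 CPM. Of 20 dissociation and heat shock genes, 8 were higher and none lower in cDC1, with a median log2 ratio of 0.82, where 7.17% of all genes were higher, and 6 were higher in Cd209a+ Flt3+ cells, where 4.68% were. In all other kept cells Hspa1a stood at 107 and 1195 CPM, Hspa1b at 79.0 and 927 CPM, and Irf7 at 38.7 and 290 CPM. These genes thus differed between the libraries outside cDC1 too, and the part of cell handling in the other differences was not tested. Over the 3376 genes at 50 CPM in both cDC1 and Cd209a+ Flt3+ cells, 81 were higher in Runx3 in both classes, 29 were lower in both and none lay past 2-fold in opposite directions.

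Some of the largest differences between libraries rested on few cells. Of the 273 higher genes, 153 stayed past 2-fold when the 5% of cells with most UMIs of each gene were left out of each sum, 3 cells of Runx3 and 20 of Runx3_fl, as did 53 of the 68 lower genes. Irf7, Usp18, Rsad2, Isg15, Hspa1a, Il12b, Cxcl9, Cxcl10, Iigp1, Tnip3, Serpinb9 and Cd80 were among those that stayed. Fscn1, Apol7c and C1qc were among those that did not. Gzma, a granzyme of NK and T cells, had 1315 UMIs in cDC1 of Runx3_fl, 354 of them in 1 cell. Of 12 macrophage and monocyte markers, 3 reached 50 CPM in all cDC1 of Runx3_fl and 10 in those of Runx3, so most were compared only through the library where they are high. The median log2 ratio of this list less that of all genes was 1.88, and −0.84 with the rule on thinned cells. In Sirpa/Itgam-low cDC1 only 2 reached 50 CPM, with Ly6c2 higher and Lyz2 lower in Runx3.

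The targeted gene was read in cDC1 of both libraries. Runx3 stood at 178 CPM (170 to 187) in cDC1 of Runx3_fl and 219 CPM (193 to 247) in those of Runx3, and at 164 and 231 CPM in the Sirpa/Itgam-low cells. In Cd209a+ Flt3+ cells it stood at 169 and 229 CPM, in T cells at 242 and 239.7 CPM and in B cells at 102 and 109 CPM. After thinning, 29.1% and 31.7% of cDC1 held a Runx3 UMI. These 3′ reads need not lie in the floxed part of the gene, so they do not check the titles. Lyz2, whose promoter drives the Cre, stood at 162 and 45.3 CPM in Sirpa/Itgam-low cDC1 and at 964 and 1271 CPM in the others. After thinning to 2000 UMIs, 24.1% and 14.3% of Sirpa/Itgam-low cDC1 held a Lyz2 UMI, against 7.89% and 18.0% of T cells. In Runx3 the reading was thus not above that in T cells. Runx1 stood at 1165 and 1429 CPM, and Cbfb, the shared partner, at 119 and 133 CPM, in cDC1. None of Runx1, Runx3 and Cbfb differed 2-fold between cDC1 and Cd209a+ Flt3+ cells, while Runx2 was lower in cDC1 of Runx3_fl, at 82.6 against 300.1 CPM.

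Runx3_fl held cells of both sexes, although the mice were stated to be male. Of its 417 cDC1, 106 held Xist and no UMI of 4 Y-linked genes, 264 held a Y-linked UMI and no Xist, and 39 held both. No cDC1 of Runx3 held Xist, and 60 of 63 held a Y-linked UMI. Within Runx3_fl, cDC1 were 3.85% of Xist-only kept cells (3.16% to 4.63%) and 3.74% of Y-linked-only kept cells (3.31% to 4.21%). Between Xist-only and Y-linked-only cells of the Sirpa/Itgam-low cDC1, 14 of 3411 genes passed 2-fold (0.41%), Il12b among them at 154 against 312 CPM. In Y-linked-only kept cells the share of cDC1 was 0.991% in Runx3 (0.757% to 1.27%), which lay below that of Runx3_fl as it did over all kept cells.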

How the data were processed

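A pair of 10x Genomics 3′ single-cell libraries of mouse colon lamina propria were analysed. The deposited values are raw UMI counts per gene and cell, which the authors made with Cell Ranger 7.1.0 (filtered matrices), and the submitters' processing notes also name mm10 and Seurat 4. Gene positions came from GENCODE M21 and promoters from RefSeq on GRCm38.p6. Within a library, the UMIs of each class of cells were added up per gene, given as CPM with exact Poisson 95% intervals, and compared as log2 ratios of CPM + 1. Shares carry Clopper-Pearson intervals. These intervals cover counting error only, and with 1 library per group no test was made. cDC1 and Cd209a+ Flt3+ cells held medians of 22355 and 13722 UMIs in Runx3_fl and 19008 and 14229 in Runx3, and Runx3_fl held 146204416 UMIs and Runx3 75478164 in all.

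The cell rule and the gene lists were chosen with earlier results of these data known, and the split by Sirpa and Itgam and the leaving out of 5% of cells were chosen after seeing the data. Named genes were the list members and the 12 genes with the widest ratio in each direction among those past 2-fold and read in at least 10% of the cells on the higher side, leaving out immunoglobulin, T cell receptor, mitochondrial, ribosomal protein and unnamed gene models, and Runx3, Lyz2 and Itgam in every class. Of 343 listed genes, 7 had no row under their symbol. Cells were thinned to 2000 UMIs with a fixed seed. Doublets were not removed: cells were marked when many of their 30 closest neighbours were artificial sums of 2 cells, at an assumed rate of 0.8% per 1000 cells. Hspa1a and Hspa1b, and the histone genes, share sequence, so their split is uncertain. The code was tested on simulated data. The software was scikit-learn 1.9.0, pandas 2.3.3, matplotlib 3.10.9, scipy 1.17.1 and numpy 2.4.6 under Python 3.11.15.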

Additional observations from a re-analysis of the deposited data

Results flagged for a closer look

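Cells with more than 6000 detected genes were not among the kept cells, and some of them met the UMI part of the cDC1 rule. They numbered 21 in the library Runx3_fl and 5 in the library Runx3, above the 3 that a count of 0 allows. They enter no comparison, and how many of them hold more than 1 cell was not tested.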

How the results depend on the processing

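With 1 library per group no replicate could be left out, and the cDC1 of Runx3 are only 63 cells. No paired analysis was possible because each group is a single library. The cDC1 share of kept cells was 5.27% in Runx3_fl and 2.30% in Runx3 with 1 UMI of Xcr1 and Clec9a required, 2.68% and 0.404% with 3, 4.07% and 1.07% without Wdfy4, 4.0% and 1.11% without the exclusions, 0.346% and 0.0953% with the rule on thinned cells, and 2.66% and 0.429% with Sirpa and Itgam limited; it was 2.93% in Runx3_fl under a lower limit on detected genes. The share among both kinds of dendritic cell was 81.6% and 50.9% with 1 UMI, 69.3% and 15.4% with 3, 78.5% and 34.7% without the exclusions, and 69.1% and 16.2% with Sirpa and Itgam limited. It was 70.8% in Runx3_fl under that limit, and 32.5% in Runx3 without Wdfy4 and 13.3% on thinned cells. On thinned cells the cycling gate took 22.4% and the Ccr7 and Fscn1 gate 0% of cDC1 of Runx3_fl. Shares at 4000 UMIs were 81.0% and 73.8% for Irf8 and 49.4% and 54.1% for Runx3, and 40.5% for Cadm1 and 17.6% for Tlr3 in Runx3_fl.

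Counts of genes past 2-fold followed the level filter. At 200 CPM, 10 CPM and no filter they were 303, 1795 and 2870 against other kept cells of Runx3_fl, 120, 1081 and 2182 against Cd209a+ Flt3+ cells of Runx3_fl, 53, 799 and 2683 against those of Runx3, 70, 1146 and 2840 between the cDC1 of both libraries, and 70, 992 and 2864 between the Cd209a+ Flt3+ cells. The reported counts were 891, 393, 217, 341 and 264. With the rule on thinned cells they were 874, 1502, 1279 and 831 for the last 4 comparisons. Against Cd209a+ Flt3+ cells, 1 UMI gave 220 in Runx3_fl, and in Runx3 3 UMIs gave 580 and limiting Sirpa and Itgam 612. With 3 UMIs, 43.6% of the genes past 2-fold against Cd209a+ Flt3+ cells of Runx3 were higher in place of 66.8%, and 68.9% in place of 80.1% between the libraries. Lists over 0.5 from the median of all genes numbered 5 without Wdfy4 and 5 on thinned cells in place of 9 against Cd209a+ Flt3+ cells of Runx3_fl, and 10 with no filter in place of 6 between libraries.

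Some directions turned, and the cause was not tested. The interferon list between libraries was −0.47 at 200 CPM, and the dead cell uptake list of Runx3_fl −0.96 at 10 CPM and −0.59 with no filter. Against Cd209a+ Flt3+ cells of Runx3, Cx3cr1 was 0.07 with 1 UMI, and Apoe −2.11 with 3 UMIs and −1.91 with Sirpa and Itgam limited. The other reversals came with the rule on thinned cells: Iigp1 −0.39 against other kept cells, Birc5 −0.64, Ccl4 1.49, Ube2c −1.55 and the cytokine list 0.37 against Cd209a+ Flt3+ cells of Runx3_fl, and S100a8 −0.22 and S100a9 −0.35 against those of Runx3. Between libraries on thinned cells, Apol7c was −6.29, Arap2 0.01, Birc5 0.69, Bst2 −0.03, Ly6c2 −0.80, Pdcd1lg2 0.16, Tcf4 −1.48, the cell cycle list 0.55 and the macrophage list −0.84 in cDC1, and Hmox1 −1.30 in Cd209a+ Flt3+ cells.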
